A study of Mus musculus with 72 samples.

Results

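The histocompatibility region of the mouse, called H2, was followed through 41 of its genes in testes, livers and ovaries of mice from in vitro fertilization (IVF) and natural conception. The 41 genes are a named list among the 35976 genes of the count tables, or 25239 genes in the table at E18.5. They lie on chromosome 17 between 33919478 and 37274485 of GRCm38.p6 (chr17:33919478-37274485), a span of 3.36 Mb from Tapbp to H2-M3. The list was drawn up because the region holds a run of differing genes in testes of F2 males. The members were selected on the F2 testis fold changes and adjusted p values, so the values of that comparison are given below as a description, with no test. By role, the list holds 12 class I genes, 10 class II genes, 5 genes of peptide processing, 4 complement genes, 3 cytokine genes of the TNF family and 7 other genes of the region.

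Class I molecules sit on the surface of nearly all nucleated cells and present peptides from the cytosol to CD8 T cells. The peptides are cut by immunoproteasome subunits such as Psmb8 and Psmb9, carried into the endoplasmic reticulum by the transporter Tap1/Tap2 and loaded with the help of tapasin (Tapbp). Class II molecules are pairs of an alpha and a beta chain that present peptides to CD4 T cells, mainly on macrophages, dendritic cells and B cells. The same region also encodes the complement components C2, C4 and factor B, which the liver secretes, and it is among the most polymorphic stretches of the genome. The testis is known for low class I expression in its germ cells, and the liver is known for the secreted class I product of H2-Q10.

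F1 naturals came from CF-1 females, an outbred stock, mated with SJL/B6 males heterozygous for GFP, with development in vivo. F1 IVF mice came from superovulated CF-1 females and males of the same kind, by fertilization in vitro, culture to the blastocyst and transfer into recipients. Fetuses of both F1 groups were taken by Caesarean section at E18.5. Pups kept to 12 or 39 weeks were also delivered by Caesarean section and fostered, with the IVF pups delivered somewhat later in gestation than the naturals. F2 mice were sired by F1 males of 12 weeks, either IVF-conceived or natural, with wild-type CF-1 females, were delivered naturally and were collected at 12 weeks. An F2 IVF mouse is thus a naturally conceived offspring of an IVF-conceived father. F1 testis libraries numbered 4 natural and 6 IVF at E18.5, 5 of each at 12 weeks, and 4 natural and 6 IVF at 39 weeks. F2 tissues were testes of 5 naturals and 7 IVF males, livers of 5 and 5 males and of 5 and 6 females, and ovaries of 4 and 5 females. The labels do not say which litter or sire an animal came from, so the tests measure only the spread between these libraries, and H2 genotypes were not analysed here.

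Total counts ranged from 543745 to 90441392 over the 72 libraries. The male liver libraries IVF 2 and IVF 3 held 2137355 and 543745 counts. The 3 most similar pairs of libraries were IVF 3 with IVF 4 and Natural 1 with Natural 2 in F2 testis, and Natural 1 with Natural 2 at 39 weeks. Their counts, halved since both reads of a pair may have been counted, differed by a mean chi-square per gene of 1.42, 1.85 and 1.53 (1 is sampling noise), against 3.46 to 9.65 for the other pairs of F2 testis libraries of 1 group. They were kept apart, and counts of members with each pair summed are given beside the results. The tissues showed their defining markers: the summed spermatid markers reached 9826 to 25711 CPM (counts scaled to a library of 1000000) in adult testes, the hepatocyte markers 70009 to 239845 CPM in livers, and the oocyte and granulosa markers 1633 to 2355 CPM in ovaries. In 1 natural male liver the spermatid markers summed to 110 CPM, against at most 3.51 CPM in the IVF male livers.

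Class I and class II promoters carry conserved elements, among them a Y box (ATTGG, or CCAAT on the other strand). Reference promoters are shown for 5 members whose libraries are described below, as the 250 bases before the start site in RefSeq annotation of GRCm38.p6, 5′ to 3′ on the strand of the gene. They are the reference strain's sequence and were not read from these mice. Capitals mark the letters ATTGG and CCAAT, the only motif searched. H2-Eb1 (chr17:34305617-34305866, plus strand), H2-Aa (chr17:34287824-34288073, minus strand), H2-D1 (chr17:35262844-35263093, plus strand), H2-Q2 (chr17:35342057-35342306, plus strand) and H2-Q10 (chr17:35469839-35470088, plus strand) read:
H2-Eb1: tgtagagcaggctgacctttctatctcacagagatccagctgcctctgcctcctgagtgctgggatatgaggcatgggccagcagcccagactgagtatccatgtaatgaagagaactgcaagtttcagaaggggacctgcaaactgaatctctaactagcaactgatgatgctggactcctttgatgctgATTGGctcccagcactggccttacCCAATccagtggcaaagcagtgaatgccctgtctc
H2-Aa: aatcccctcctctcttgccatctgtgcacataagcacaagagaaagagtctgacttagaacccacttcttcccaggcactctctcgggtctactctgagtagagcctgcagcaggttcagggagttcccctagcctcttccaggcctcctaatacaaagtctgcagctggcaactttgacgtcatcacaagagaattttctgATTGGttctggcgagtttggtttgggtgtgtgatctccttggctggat
H2-D1: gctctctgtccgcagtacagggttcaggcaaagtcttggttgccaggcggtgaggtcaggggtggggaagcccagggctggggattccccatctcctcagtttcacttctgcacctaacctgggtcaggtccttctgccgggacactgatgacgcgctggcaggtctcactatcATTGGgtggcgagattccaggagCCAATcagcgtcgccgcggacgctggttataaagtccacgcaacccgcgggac
H2-Q2: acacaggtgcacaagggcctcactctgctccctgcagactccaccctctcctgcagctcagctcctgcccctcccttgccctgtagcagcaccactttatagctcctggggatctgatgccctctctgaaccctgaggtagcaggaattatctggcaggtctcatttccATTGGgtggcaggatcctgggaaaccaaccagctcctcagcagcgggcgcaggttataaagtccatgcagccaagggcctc
H2-Q10: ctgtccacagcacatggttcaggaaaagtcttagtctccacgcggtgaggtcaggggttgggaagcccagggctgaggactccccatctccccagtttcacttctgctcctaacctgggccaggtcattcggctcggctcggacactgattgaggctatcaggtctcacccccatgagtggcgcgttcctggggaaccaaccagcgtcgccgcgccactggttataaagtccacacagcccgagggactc

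The Y box letters start 59 and 35 bases before the start site of H2-Eb1, 48 before that of H2-Aa, 76 and 53 before that of H2-D1 and 81 before that of H2-Q2. H2-Q10 does not hold these letters in this window, although its promoter is 80.5% identical to that of H2-D1 over their alignment. The promoters of H2-D1 and H2-Q2 are 59.8% identical. Promoters of 32 of the 41 members were in the table used. The Y box letters, on either strand, occurred in 21 of these 32 (65.6%) and in 34.5% of all 27025 promoters of the same length. No match overlapped another in the 5 promoters shown.

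Levels in naturals differed by tissue, in CPM scaled within each table. H2-K1, a classical class I gene, stood at 59.0 ± 15.4 CPM in F2 testes (SD, n = 5), 354 ± 64.9 in F2 male livers (n = 5), 340 ± 101 in F2 female livers (n = 5) and 254 ± 23.5 in F2 ovaries (n = 4). H2-Q10 stood at 0.765 ± 0.308 CPM in F2 testes, 1848 ± 383 in male livers, 787 ± 131 in female livers and 21.6 in ovaries (range 10.3 to 29.1). The class II chain H2-Aa was at 3.07 ± 1.15 CPM in F2 testes, 14.4 ± 3.54 and 13.0 ± 5.34 in male and female livers and 74.3 ± 22.2 in ovaries. C4a, the sex-limited protein, annotated in the reference as a transcribed pseudogene, stood at 420 ± 122 CPM in natural male livers and at 18.9 ± 6.61 in natural female livers. Tnxb, an extracellular matrix protein, was at 238 ± 86.2 CPM in ovaries and at 3.24 ± 0.681 in F2 testes. The tables were normalized separately, so these levels across tissues carry no test. H2-K1 stood at no more than 104 CPM in any testis and at no less than 219.9 CPM in any natural liver or ovary.

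In testes of F2 males, 36 of the 41 members passed the filter on low counts, and 13 of them reached both limits that make a call in every comparison here: adjusted p below 0.05, and more than 1.5-fold between group levels. Of the 13, 6 were higher and 7 were lower in IVF. Over all genes 0.914% were called, 0.480% higher and 0.433% lower, and in this comparison nothing is read from the count, since it chose the members. The untested genes were H2-Oa, H2-Ob, H2-Eb2, Tnf and H2-Q1, each at or below 1.55 CPM in all libraries. For 10 members the IVF and natural libraries did not overlap, against 1.93% of all genes. The members nearest the limit on the inside were H2-Q2, with a log2 fold change of 1.02 ± 0.26 (SE), and Tnxb, with 0.59 ± 0.15. The nearest on the outside in edgeR was H2-D1, with 0.99 ± 0.22, which passed both limits in DESeq2 (14 members, 1.57% of all genes) and with the GC trend (described below) removed. With that trend removed, H2-Q2 and Tnxb no longer passed, and 12 members were called.

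Among class II genes, H2-Ab1, the beta chain of the A molecule, stood at 20.2, 22.6, 9.47, 19.8 and 20.4 CPM in Natural 1 to 5. In the 7 IVF testes its lowest, median and highest levels were 3.14, 6.05 and 7.08 CPM. Natural 3 was the closest natural library and still lay above every IVF library. The fitted log2 fold change of H2-Ab1 was -1.70 ± 0.22. H2-DMb2, a beta chain of the DM molecule that edits class II peptides, was at 1.12, 0.922, 1.70, 0.787 and 1.82 CPM in naturals and at 0.0454, 0.357 and 0.576 CPM (lowest, median, highest) in IVF. H2-Ea-ps, the E alpha gene, is annotated in the reference strain as a transcribed pseudogene. Its deposited counts were 0, 0, 0, 2 and 0 in Natural 1 to 5 and 15, 27, 22, 23, 24, 12 and 35 in IVF 1 to 7, so all 7 IVF testes held reads of this gene and 1 natural testis did. The other class II genes tested did not reach the limits, with H2-Aa at 0.48 ± 0.33, H2-Eb1 at 0.28 ± 0.17, H2-DMb1 at 0.32 ± 0.24 and H2-DMa at 0.09 ± 0.10 on the log2 scale.

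Among class I genes, H2-D1 stood at 19.5, 19.4, 39.1, 37.8 and 22.6 CPM in Natural 1 to 5 and at 43.6, 57.8 and 68.8 CPM (lowest, median, highest) in IVF. The groups of H2-D1 did not overlap, and Natural 3 and Natural 4 were the closest to IVF. H2-K1, the other classical gene, had a log2 fold change of -0.32 ± 0.19, with 32.9 to 73.8 CPM in naturals and 36.7 to 58.9 CPM in IVF. H2-Q2 was at 0.975, 0.553, 0.830, 0.600 and 0.579 CPM in naturals and at 0.998, 1.33 and 2.10 CPM (lowest, median, highest) in IVF. H2-Q10 was at 0.759, 0.664, 1.17, 0.900 and 0.331 CPM in naturals and at 1.18, 1.89 and 2.62 CPM in IVF, a log2 fold change of 1.27 ± 0.30. Both Q genes were about 1 CPM, so each rests on few counts. H2-Q1, which was not tested, was at 0.867, 1.44, 1.55, 0.262 and 1.20 CPM in naturals and at 0 to 0.398 CPM in IVF.

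Among the other genes, the lysosomal sialidase Neu1 was at 19.1, 21.0, 10.0, 12.4 and 18.46 CPM in naturals and at 3.87, 5.13 and 6.17 CPM (lowest, median, highest) in IVF. The log2 fold change of Neu1 was -1.72 ± 0.17, and its groups did not overlap. Lta, the lymphotoxin alpha cytokine, was at 0.145, 0, 0.377, 0.150 and 0.0414 CPM in naturals and at 0.544, 0.658 and 1.74 CPM in IVF. G6b, an inhibitory receptor of platelets, was at 4.24 to 5.67 CPM in naturals and 6.59 to 15.8 CPM in IVF, and Tnxb at 2.10 to 3.92 CPM and 4.19 to 5.64 CPM, again without overlap. The remaining members past both limits overlapped between groups, all with lower values in IVF. These were C4a (-0.72 ± 0.14), the galactosyltransferase B3galt4 (-0.69 ± 0.14), the choline transporter-like gene Slc44a4 (-1.34 ± 0.32) and corneodesmosin, Cdsn (-0.90 ± 0.19). The 5 genes of peptide processing were not called, with log2 fold changes from -0.23 (Tap2) to 0.59 (Psmb8), and C4b stood at -0.35 ± 0.28.

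The called members did not sit in 1 block of a single direction. In map order, B3galt4, H2-DMb2 and H2-Ab1 were lower, H2-Ea-ps and Tnxb higher, C4a, Slc44a4 and Neu1 lower, G6b, Lta, H2-Q2 and H2-Q10 higher, and Cdsn lower. Of 100 other RefSeq genes of the span that were tested, 2 were called (2.00%, against 0.914% of all genes). These were Gm10499 at -1.99 ± 0.31 and Gm31560 at 1.34 ± 0.33. The members had been picked from the span on this comparison, so nothing is read from the share of the genes left. Macrophage markers summed to 69.8 to 78.5 CPM in naturals and 69.5 to 81.8 CPM in IVF, B cell markers to 17.6 to 26.0 and 19.4 to 25.2 CPM, and T and NK cell markers to 7.31 to 10.4 and 7.36 to 11.2 CPM. These sums overlapped between the groups, and none of the macrophage, dendritic, B or T and NK cell markers was called. Of the 16 tested genes of antigen presentation outside the region none was called, with a median log2 fold change of 0.05. Of the Sertoli and Leydig cell markers, Hsd3b1 was called, at 0.89 ± 0.16. In these bulk samples, fewer cells of a type and less RNA per cell cannot be told apart. With both near-identical pairs summed, 8 members were called (Tnxb, Slc44a4, H2-Q2, H2-Q10 and Cdsn no longer were), and 8 also without Natural 1 and without Natural 5.

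**Figure D1:**
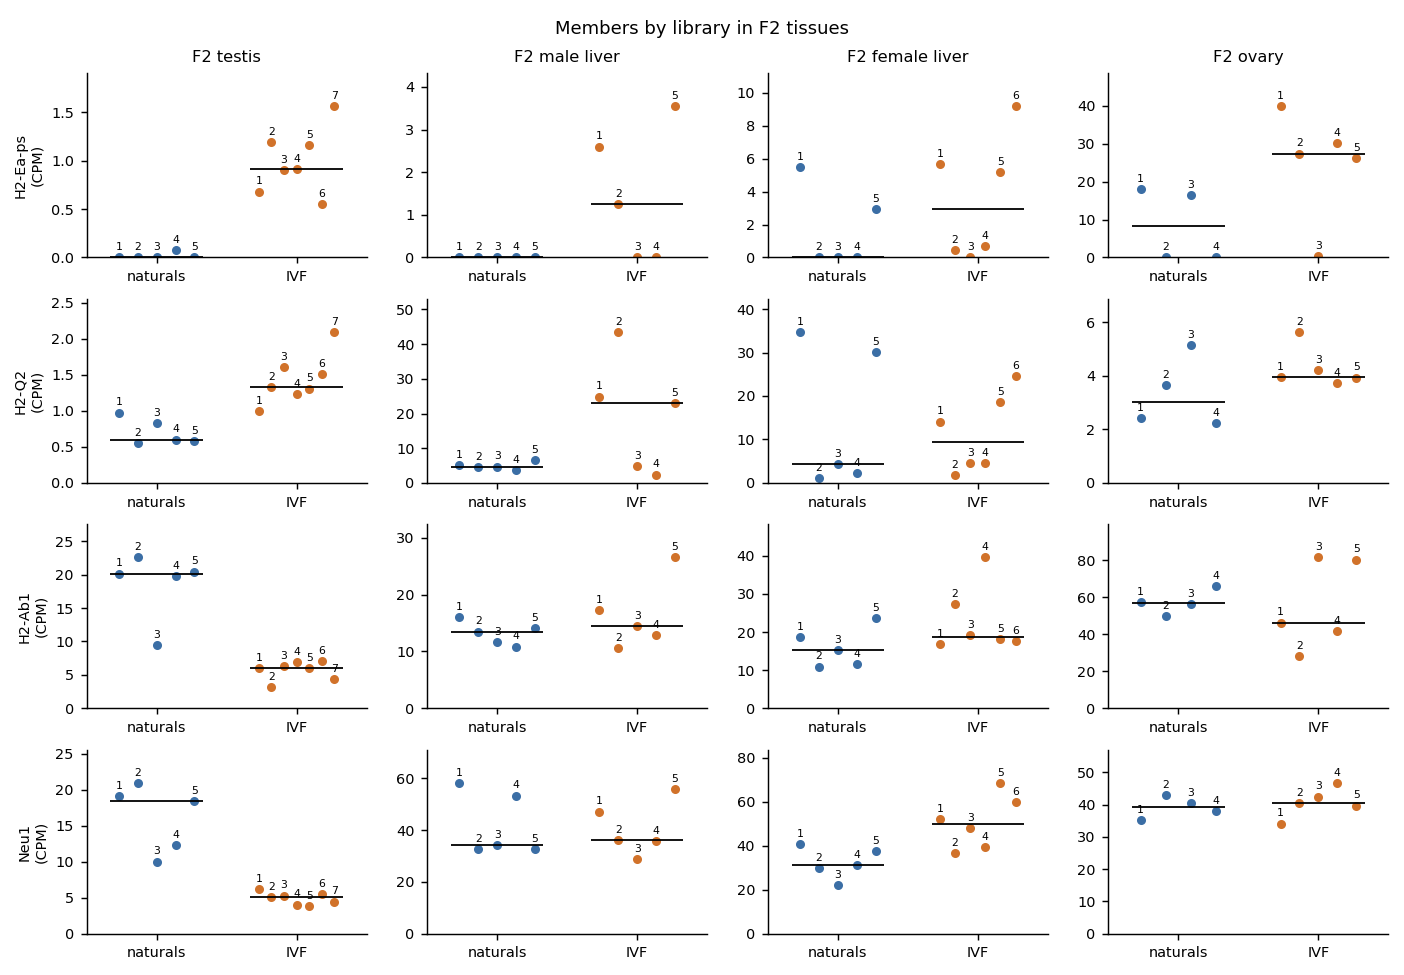
Level of 4 members in each F2 library, in CPM on linear axes that start at 0, with 1 point per library (its replicate number above it) and a line at the median of the group. H2-Ea-ps and H2-Ab1 did not overlap between naturals and IVF in testes, whereas in female livers and ovaries H2-Ea-ps was near 0 in some libraries of both groups and present in the others.

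Some of the same members varied strongly between single libraries of F1 testes. At 12 weeks H2-Ab1 stood at 70.0 CPM in Natural 1, 67.1 in IVF 2 and 72.4 in IVF 3, and at 4.88 to 12.6 CPM in the other 7 libraries. H2-Eb1, the beta chain of the E molecule, was high in the same 3 libraries, at 18.0, 14.8 and 16.5 CPM, against 2.96 to 4.40 CPM. H2-Aa, whose product pairs with that of H2-Ab1, was at 2.27, 1.63 and 4.49 CPM there and at 2.20 to 3.20 CPM in the others. At 39 weeks H2-Ab1 was at 67.0 and 64.2 CPM in IVF 1 and IVF 2 and at 4.69 to 12.1 CPM elsewhere, and H2-Eb1 was at 19.3 and 15.3 CPM in these libraries and at 2.21 to 8.72 CPM elsewhere. The libraries high for both beta chains were thus of both groups at 12 weeks and IVF alone at 39 weeks, with no library between the low and the high levels of H2-Ab1. In F2 testes the highest H2-Ab1 level was 22.6 CPM.

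Neu1 also had separate levels in F1 testes. At 12 weeks it was at 13.1, 14.0, 9.88, 13.3 and 13.9 CPM in Natural 1, Natural 2, IVF 2, IVF 4 and IVF 5, and at 4.70 to 6.12 CPM in the other 5 libraries. H2-DMb2 was higher in the same 5 libraries, at 0.723 to 2.07 CPM, than in the rest, at 0.192 to 0.556 CPM. At 39 weeks Neu1 ranged from 5.14 to 16.1 CPM in naturals and from 5.24 to 12.2 CPM in IVF. H2-D1 at 12 weeks was at 15.5, 15.9 and 14.1 CPM in Natural 1, Natural 5 and IVF 1, and at 28.2 to 56.4 CPM in the rest. H2-Ea-ps was detected in all 10 testes at 12 weeks, with 4 to 11 counts, and in all 10 at 39 weeks, with 1 to 18 counts.

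**Figure D2:**
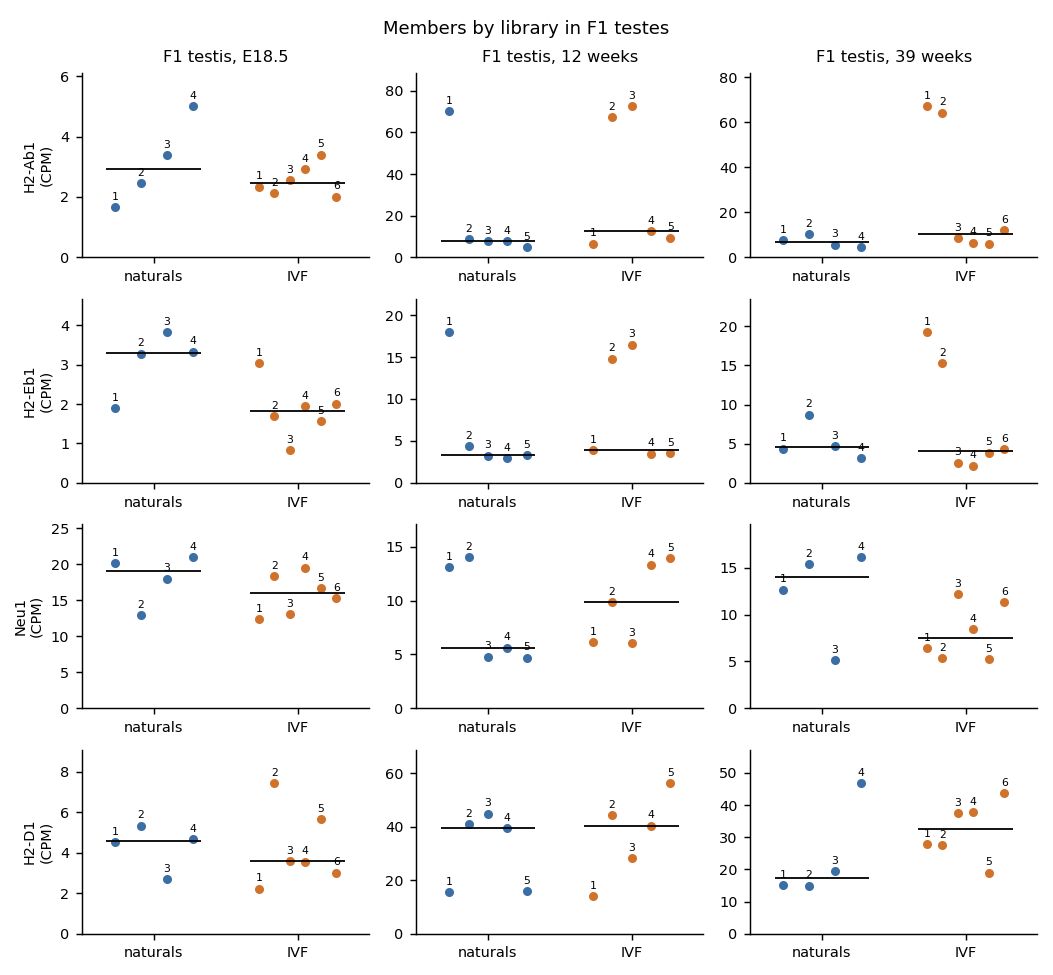
Level of H2-Ab1, H2-Eb1, Neu1 and H2-D1 in each F1 testis library at the 3 ages, in CPM on linear axes that start at 0, with 1 point per library (its replicate number above it) and a line at the median of the group. At 12 weeks Natural 1, IVF 2 and IVF 3 lie far above the other libraries for both H2-Ab1 and H2-Eb1, and at 39 weeks IVF 1 and IVF 2 do.

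Between IVF and natural F1 testes no member was called by edgeR. At E18.5 naturals held 2904727 to 4869139 counts and IVF testes 8500054 to 15745480, without overlap, and the part of depth was not tested. Of the members, 32 were tested and 0 were called (0.221% of all genes were). The unadjusted p was under 0.05 for 3 (17.7% of all genes), and DESeq2 called 2 (0.649%), H2-K1 and Tap2, which with Cdsn (-1.18 ± 0.49) were the 3. H2-K1 was at 30.9, 21.1, 38.1 and 46.6 CPM in naturals and at 17.4 to 26.9 CPM in IVF, a log2 fold change of -0.69 ± 0.19 with an adjusted p of 0.0826 in edgeR. Tap2 was at 9.99, 15.8, 11.9 and 12.3 CPM in naturals and at 4.35 to 9.13 CPM in IVF, without overlap, at -0.80 ± 0.22 with an adjusted p of 0.0734. Without Natural 2, edgeR called H2-K1, at -0.87 with an adjusted p of 0.0192. The median log2 fold change was -0.19 over the tested members and -0.00 over all genes, and -0.11 over the members with the GC trend removed (Spearman rho of log2 fold change with GC content across genes -0.37). Hepatocyte markers summed to 1.33 to 442 CPM in naturals and 0.310 to 15.7 CPM in IVF, with the highest sum in Natural 1. Without Natural 1, H2-K1 stood at -0.73 and Tap2 at -0.89, and neither was called. H2-K1 was at -0.52 without Natural 4 and Tap2 at -0.65 without Natural 2, again with no call. The part of the hepatocyte markers in these values was not tested.

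At 12 weeks 35 members were tested and 0 were called (0.199% of all genes), 1 had an unadjusted p under 0.05 (12.9%) and DESeq2 called 0 (0.348%). That member was H2-DMa, an alpha chain of the DM molecule, at -0.39 ± 0.15. At 39 weeks 34 were tested and 0 were called (0.00996%), 4 had an unadjusted p under 0.05 (10.5%) and DESeq2 called 0 (0.473%). The 4 were H2-Q4 (1.15 ± 0.39), B3galt4 (-0.80 ± 0.29), H2-Ab1 (1.95 ± 0.79) and H2-Ke6 (-0.45 ± 0.20), and their adjusted p values were 0.321 to 0.451. The median log2 fold change of the tested members was 0.15 at 12 weeks and -0.11 at 39 weeks, against 0.01 for all genes at both ages. The members' medians with the GC trend removed were 0.11 and -0.02, where the log2 fold change correlated with GC content across genes at a Spearman rho of 0.16 and -0.42. The 17 further genes of antigen presentation outside the region and the marker lists held no called gene at any F1 age.

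In livers of F2 males, 28 members were tested and 10 were called, 1 higher and 9 lower in IVF. Over all genes 31.1% were called, 13.9% higher and 17.2% lower. Groups did not overlap for 6 members, against 27.0% of all genes. The lower genes were 4 of the 5 peptide processing genes (Tapbp, Tap1, Tap2 and Psmb9), the class I genes H2-Q1, H2-Q7 and H2-Q10, complement C2 and Tnxb. The higher gene was H2-Q2. The share of members called was 35.7%, close to that of all genes, and the median log2 fold change was -0.50 for the tested members and -0.01 for all genes.

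H2-Q1 had the smallest adjusted p among the members. It was at 7.23, 7.73, 7.56, 4.19 and 9.25 CPM in naturals and at 2.13, 0, 0, 1.60 and 1.27 CPM in IVF 1 to 5, without overlap. Its log2 fold change was -2.26 ± 0.40, with an adjusted p of 0.000592 in edgeR. H2-Q10 fell by 1.24 on the log2 scale (SE 0.29, adjusted p = 0.00414 in edgeR), from 1397, 2053, 2152, 1466 and 2172 CPM in naturals to 1144, 669, 588, 334 and 1166 CPM in IVF. Tap2 fell from 55.5, 52.4, 53.4, 39.7 and 51.8 CPM to 21.6, 10.6, 0, 34.6 and 26.8 CPM, and its groups did not overlap either. The log2 fold changes of Tap2, Tapbp, Tap1 and Psmb9 were -1.18 ± 0.32, -1.06 ± 0.29, -0.88 ± 0.23 and -0.81 ± 0.28. Psmb8 stood at -0.63 ± 0.27 and did not pass (adjusted p = 0.082 in edgeR). The classical genes H2-K1 (0.08 ± 0.24) and H2-D1 (-0.30 ± 0.19) and the class II genes H2-Aa (0.41 ± 0.23), H2-Ab1 (0.37 ± 0.23) and H2-Eb1 (0.11 ± 0.39) were not called.

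H2-Q2 was at 5.09, 4.63, 4.67, 3.77 and 6.48 CPM in natural male livers and at 24.9, 43.5, 4.82, 2.40 and 23.02 CPM in IVF 1 to 5, a log2 fold change of 2.06 ± 0.57 (adjusted p = 0.0158 in edgeR). The same IVF 1, IVF 2 and IVF 5 held H2-Ea-ps, with 33, 2 and 28 counts, while IVF 3, IVF 4 and the 5 naturals held 0. IVF 3 and IVF 4 thus lay within or below the range of naturals for H2-Q2, but IVF 3 held only 2 counts of it. At the depth of IVF 3, neither these 2 counts nor its 0 counts of H2-Ea-ps fix a level. C4a showed 1 library apart: IVF 4 stood at 1016 CPM, against 91.6 to 174 CPM in the other IVF livers and 258 to 593 CPM in naturals. Its log2 fold change was -0.41 ± 0.67, and without IVF 4 it was called, at -1.61, as were Psmb8 and C4b. C4b was at 2184 CPM in IVF 4 and at 308 to 692 CPM in the other IVF livers, with 1538 to 2097 CPM in naturals.

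The male liver libraries also differed in depth and in base composition. Naturals held 10391074 to 44069283 counts and IVF livers 543745 to 12624673. Across genes, the log2 fold change correlated with the GC content of the transcripts at a Spearman rho of -0.60, a description over genes that share the same 10 libraries. The median GC content was 54.4% for the tested members and 49.5% for all tested genes. With the GC trend removed from each library, 4 members were called (16.8% of all genes). Of these, 3 were higher, H2-Ke6 (0.74), H2-Ab1 (1.13) and H2-Q2 (3.10), and H2-Q1 was lower (-2.26). The other 8 members lost their call and the median of the members was then -0.04. Without IVF 2 and IVF 3, 7 members were called (26.5% of all genes). H2-Q2, H2-Q7 and H2-Q10 were then not called, at 1.81, -1.04 and -1.05 with adjusted p values of 0.0513, 0.0691 and 0.0773 in edgeR, against 2.06, -1.17 and -1.24 with all libraries. DESeq2 called 13 members with all libraries (33.6%). The part of depth in these values was not tested further.

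In livers of F2 females, 31 members were tested and 18 were called, all 18 higher in IVF. Over all genes 39.4% were called, 21.6% higher and 17.8% lower. For 10 members the groups did not overlap, against 29.4% of all genes. The higher genes were all 5 of peptide processing, all 4 complement genes, 5 of 12 tested class I genes (H2-K1, H2-D1, H2-Q6, H2-Q10 and H2-M3), 2 of 6 tested class II genes (H2-Aa and H2-Eb1), Tnxb and Neu1. The median log2 fold change was 0.95 for the tested members and -0.01 for all genes.

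H2-Eb1 was at 6.71, 7.08, 7.06, 6.62 and 8.33 CPM in natural female livers and at 12.5, 17.5 and 23.2 CPM (lowest, median, highest) in the 6 IVF livers. Its groups were apart, and its log2 fold change was 1.27 ± 0.18 with an adjusted p of 4.89e-05 in edgeR. Tap2 was at 20.7, 29.1, 16.9, 26.8 and 23.9 CPM in naturals and at 45.5, 55.5 and 77.3 CPM in IVF, a change of 1.27 ± 0.17 (adjusted p = 3.69e-05 in edgeR). C4b rose from 488, 1410.4, 535, 719 and 576 CPM in naturals to 1443, 1887 and 2234 CPM (lowest, median, highest) in IVF, and Natural 2 lay just below the lowest IVF library. H2-K1 was at 413, 434, 242, 220 and 390 CPM in naturals and at 393, 641 and 1074 CPM in IVF, so the groups overlapped. Its log2 fold change was 0.95 ± 0.25 (adjusted p = 0.00521 in edgeR). H2-M3, a class I gene that presents formylated peptides, had the largest log2 fold change of the called members, 1.81 ± 0.51. It was at 0 to 1.13 CPM in naturals and 0.957 to 2.35 CPM in IVF. The level in naturals rests on few deposited counts, 2, 6, 4, 0 and 14 in Natural 1 to 5. The class II chain H2-Ab1 (0.51 ± 0.26) and the class I genes H2-Q7 (0.93 ± 0.42) and H2-T23 (1.28 ± 0.51) were not called by edgeR. DESeq2 called 23 members (41.5% of all genes), H2-Q7 and H2-T23 among them.

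H2-Ea-ps and H2-Q2 split the female livers across the groups. H2-Ea-ps was at 5.49 and 2.94 CPM in Natural 1 and Natural 5 and at 5.68, 5.20 and 9.17 CPM in IVF 1, IVF 5 and IVF 6. In the other 6 libraries it was at 0 to 0.680 CPM. H2-Q2 was at 34.7, 30.1, 14.1, 18.6 and 24.6 CPM in the same 5 libraries and at 1.13 to 4.62 CPM in the rest. Neither was called between IVF and naturals (log2 fold changes of 1.18 ± 1.37 for H2-Ea-ps and -0.32 ± 0.96 for H2-Q2), with libraries of both kinds in each group.

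The female libraries, too, differed in depth, base composition and makeup. Naturals held 3947645 to 34149676 counts and IVF livers 13815244 to 90441392. Across genes, the log2 fold change correlated with GC content at a Spearman rho of 0.71, opposite in sign to the males. With the GC trend removed, 6 members were called, 5 higher (8.34% of all genes) and 1 lower (10.2%). Those that kept a higher call were Psmb8 (0.82), H2-Aa (1.20), H2-Eb1 (1.01), C4b (0.75) and H2-M3 (1.64), and H2-Ke6, the hydroxysteroid dehydrogenase Hsd17b8, was called lower at -0.62. H2-Ke6 had stood at 0.48 ± 0.13 with counts as deposited. The other 13 members lost their call, and the median of the members was 0.40. The summed hepatocyte markers were 160923 to 239845 CPM in naturals and 106764 to 121951 CPM in IVF, without overlap, and macrophage markers summed to 101 to 264 and 159 to 300 CPM. The part of depth and of these markers in the members' values was not tested.

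The difference between the sexes was tested as the IVF effect in female livers minus that in male livers, in 1 fit of the same 21 libraries. Of 32 tested members, 22 were called, all with a higher value in females, where 52.9% of all genes were called and 27.7% were called higher. The median was 1.71 on the log2 scale for the members and 0.01 for all genes. Among the peptide processing genes, Tap2 differed by 2.45 ± 0.38 (adjusted p = 8.72e-06 in edgeR) and Tapbp by 2.11 ± 0.35 (adjusted p = 1.6e-05 in edgeR). H2-Q1 differed by 3.68 ± 0.73, H2-Q10 by 1.90 ± 0.41, C4b by 2.28 ± 0.53 and Tnxb by 2.53 ± 0.52. H2-Ab1 (0.15 ± 0.36), H2-Aa (0.54 ± 0.40) and H2-T22 (0.65 ± 0.53) did not pass. Of the 28 members tested in both livers, 20 had a negative value in males and a positive one in females, and 15 did so with the GC trend removed.

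With the GC trend removed, 9 members differed between the sexes (34.8% of all genes). Psmb8 (1.12), Tap2 (0.91), C2 (0.77), H2-Q1 (3.68), H2-Q7 (1.56) and H2-M3 (1.77) had the higher value in females, and H2-Ke6 (-1.43), H2-Ab1 (-1.49) and H2-Q2 (-4.62) the lower one. The difference for H2-Q1 was the same to 2 decimals with and without the trend. Its GC content of 49.3% is near the median of all tested genes (49.5% in both livers), so removing the trend could hardly move it. In IVF male livers its level rests on 27, 0, 0, 16 and 10 counts. Without the male libraries IVF 2 and IVF 3, 18 members differed with counts as deposited (49.8% of all genes). DESeq2 called 25 members for the difference with all libraries (54.6%).

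**Figure D3:**
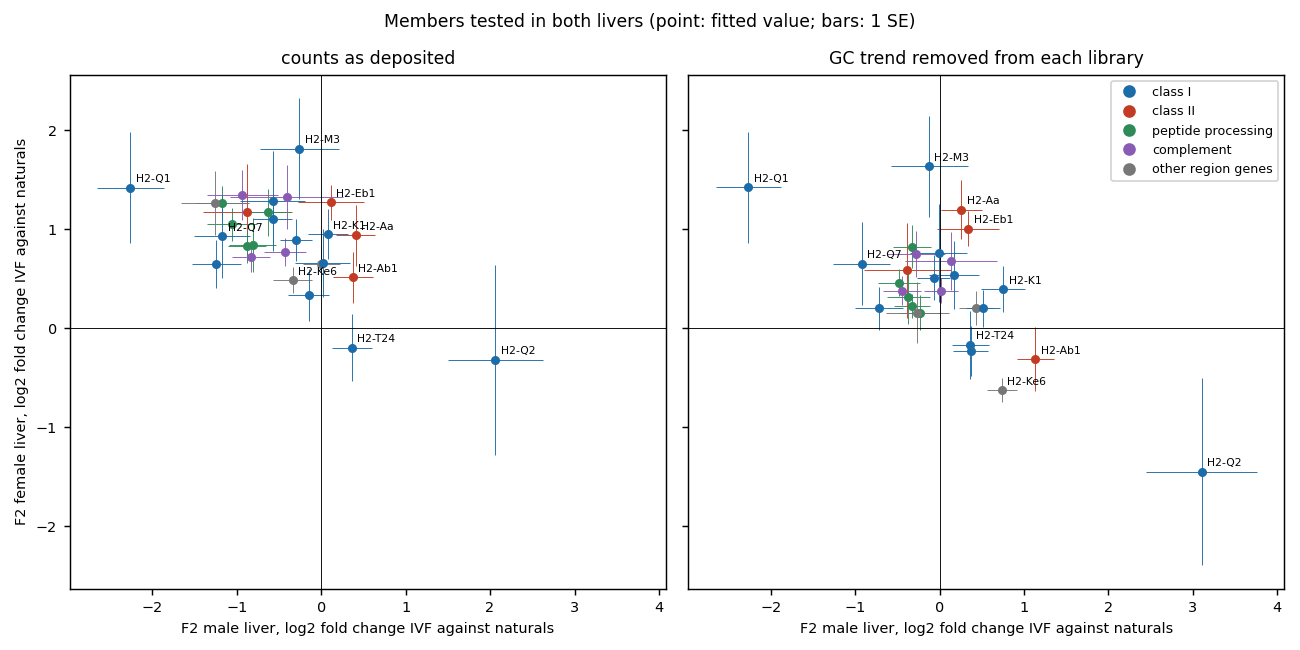
Log2 fold change of the 28 members tested in both F2 livers, males on the horizontal and females on the vertical axis, with bars of 1 SE and colours by role, for counts as deposited (left) and with the GC trend removed (right). On the left 20 points lie in the upper left (negative in males, positive in females), and on the right 15 do, with H2-Q2, H2-Ab1 and H2-Ke6 at the lower right.

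In F2 ovaries 36 members were tested and 0 were called by edgeR, as were 0% of all genes. The unadjusted p was under 0.05 for 1 member (10.6% of all genes), H2-Ke6 at 0.25 ± 0.09, and DESeq2 called 0 members (0.545% of all genes). The median log2 fold change was -0.05 for members and -0.01 for all genes. H2-Ea-ps fell into separate levels within both groups: 17.9 and 16.4 CPM in Natural 1 and Natural 3, 39.8, 27.4, 30.1 and 26.3 CPM in IVF 1, IVF 2, IVF 4 and IVF 5, and 0 to 0.384 CPM in Natural 2, Natural 4 and IVF 3. Its counts were 885 and 290 in the first pair and 0, 3 and 6 in the last 3 libraries. H2-DMb2 was at 0.959 to 2.43 CPM in Natural 2, Natural 3, Natural 4 and IVF 3 and at 0.174 to 0.408 CPM in the other 5. H2-K1 was at 231 to 282 CPM in naturals and at 109 to 312 CPM in IVF, and H2-Eb1 at 41.1 to 69.6 and 46.5 to 98.5 CPM.

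The members called in F2 testes were then read in the other F2 tissues for the direction of their values. The labels do not say whether libraries of different F2 tissues came from the same animals, so the tissues may not be separate sets of mice. In male livers 6 of the 13 were tested, and 2 had the sign of the testis, C4a and H2-Q2, of which H2-Q2 was called. Tnxb and H2-Q10 were called with the opposite sign. After removal of the GC trend, H2-Q2 alone had the same sign, again called, and H2-Ab1 was the one called with the opposite sign. In the testis itself, H2-Q2 was not called with that trend removed. Of the 37 other genes called in F2 testes and tested in male livers, 29 (78.4%) had the same sign. Below the filter there, H2-Ea-ps averaged 0 CPM in naturals and 1.48 CPM in IVF, and B3galt4 1.03 and 0.255 CPM. H2-DMb2 averaged 0.698 and 0.202 CPM and Slc44a4 0.141 and 0 CPM. The averages of these untested members lay in the direction of the testis, but on few counts. In IVF 1 to 5, B3galt4 held 4, 0, 0, 2 and 6 counts and H2-DMb2 2, 0, 0, 6 and 2. Slc44a4 held 4, 6, 0, 8 and 0 counts in naturals and 0 in each IVF liver. G6b was near 0 in both groups, and Lta and Cdsn held no counts. Without IVF 2 and IVF 3, B3galt4 (-1.31 ± 0.64) and H2-DMb2 (-1.01 ± 0.66) were tested, and neither was called. In female livers 8 were tested and 3 had the same sign (H2-Ea-ps, Tnxb and H2-Q10), the last 2 of them called, while C4a and Neu1 were called with the opposite sign. With the GC trend removed, 4 had the same sign and none of the 8 was called. Among other genes 48.9% had the same sign. The untested H2-DMb2 averaged 0.179 CPM in naturals and 0.794 CPM in IVF female livers, opposite in direction to the testis. Slc44a4, G6b, Lta and Cdsn, also untested, averaged at most 0.235 CPM in either group. In ovaries 11 were tested and 8 had the same sign, with none called, against 56.1% of the other genes. Neu1 was at 0.00 ± 0.22 on the log2 scale in male livers, 0.65 ± 0.18 in female livers and between 34.1 and 46.7 CPM in all 9 ovaries.

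**Figure D4:**
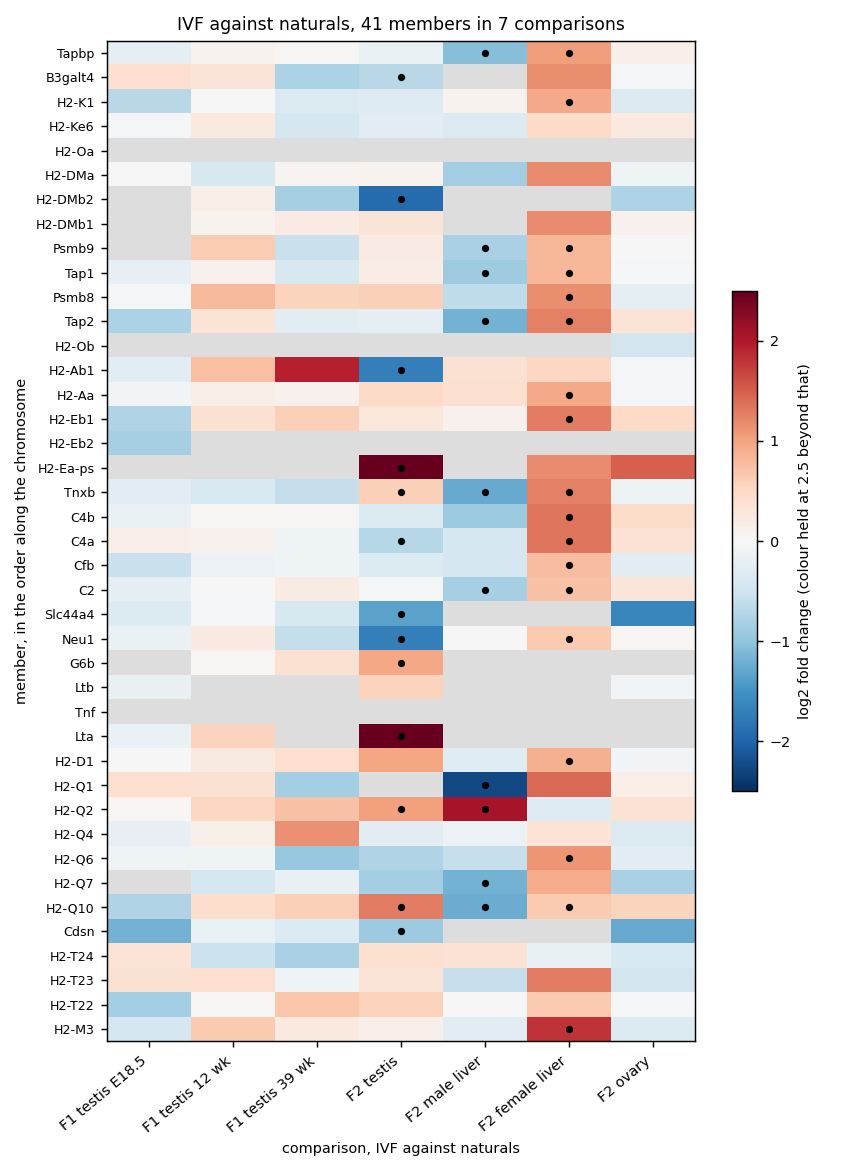
Log2 fold change, IVF against naturals, of the 41 members (rows, in chromosomal order) in the 7 comparisons (columns), on a colour scale held at 2.5, with untested members in grey and a dot for each call. The calls are in F2 testes (13), male livers (10) and female livers (18), and none is in F1 testes or ovaries.

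Genes of antigen presentation outside the region were read beside the members. In male livers, 17 were tested, 6 were called higher and 3 lower, with a median of 0.42. B2m, the light chain shared by all class I molecules, rose by 1.45 on the log2 scale (SE 0.20, adjusted p = 0.000124 in edgeR), and Pdia3, Psme1 and Calr also rose, by 0.82, 0.69 and 0.83. Psmb10, the third immunoproteasome subunit, was called lower at -0.97 ± 0.24. In female livers 4 of 17 were called higher and 4 lower, with a median of -0.16. B2m fell by 1.55 (SE 0.19, adjusted p = 2.26e-05 in edgeR) and Psmb10 rose by 1.51 (SE 0.29). Cd74, the invariant chain of class II, rose by 1.17, and Psme2 by 1.02. With counts as deposited, the change of B2m was thus opposite in sign to those of Tap2 and Tapbp within each sex. The difference of B2m between the sexes was -2.98 ± 0.27. With the GC trend removed, neither Tap2 (-0.48 in males, 0.46 in females) nor Tapbp (-0.33 and 0.22) was called in either liver. Of the genes outside the region, 7 were then called higher and 0 lower in males, and 2 higher and 2 lower in females.

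Interferon response genes were called in both directions. In male livers 4 of 18 were called higher, namely Cxcl9 (1.44), Oasl2 (1.17), Ifit1 (0.73) and Iigp1 (0.59), and 2 lower, among them Bst2 (-1.38). In female livers 1 of 19 was called higher, Bst2 (1.15), and 4 lower, among them Oasl2 (-1.69), Ifit1 (-1.61) and Iigp1 (-0.98). Over all genes, 31.1% were called in male livers and 39.4% in female livers. With the GC trend removed, 2 interferon response genes were called higher and 1 lower in males, and 0 higher and 2 lower in females. Of 10 macrophage markers, 5 were called higher and 1 lower in males (median 0.51), with C1qa at -1.51 the lower one and Cd163 at 1.31 among the higher, and 5 higher and 0 lower with the GC trend removed. In females 2 were called higher, among them C1qa at 1.93, and 1 lower, Mrc1 at -0.84 (median 0.28), and 1 higher and 0 lower with the GC trend removed. Other RefSeq genes of the span were called in 35 of 80 cases in male livers (43.8%, against 31.1% of all genes), 32 of them lower, and in 38 of 81 cases in female livers (46.9%, against 39.4%), 37 of them higher. After removal of the GC trend, 9 were called higher and 8 lower in males, and 8 higher and 4 lower in females. Rxrb was at -1.90 ± 0.20 in males and 2.26 ± 0.25 in females, Ppt2 at -1.47 ± 0.19 and 1.69 ± 0.18, and Prrc2a at -1.21 ± 0.16 and 1.28 ± 0.16. H2-Bl (-2.71) and Gm8909 (-1.77) in males and Bag6 (1.47) and Slc39a7 (1.35) in females were the other called genes of the span with the smallest adjusted p.

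Some members share sequence with close copies. The class I genes of the Q and T groups, C4a with C4b, and H2-DMb1 with H2-DMb2 belong to families of related sequence. How alike their transcripts are was not measured here. How reads that map to several genes were counted is not given in the sources used here. Values of single genes of these families are thus uncertain, to a degree not known for each gene. In the RefSeq annotation 10 of the 41 members overlap another gene, such as Tnxb with Cyp21a2-ps and H2-T22, H2-T23 and H2-T24 with A930015D03Rik. Whether the counting used the strand of the libraries is not given either.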

How the data were processed

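RNA was sequenced from 72 libraries with a stranded mRNA kit. The authors trimmed reads with Trimmomatic 0.32, aligned them to mm10 with STAR 2.3.0e and counted them with featureCounts 1.5.0, per the submitters' processing notes, and deposited raw counts per gene in 7 tables. The strand and multi-mapping settings of the counting are not given in the sources used here. Groups were taken from the labels. Each table was fitted by itself with edgeR 4.0.16 in R 4.3.3 (filterByExpr, TMM scaling, robust quasi-likelihood F test, Benjamini-Hochberg adjustment over all genes tested), and a call needs adjusted p below 0.05 and more than 1.5-fold between groups. CPM are TMM-scaled counts in a library of 1000000. A prior count of 2 was used for log2 CPM, in the GC trend and the check of replicate numbers. Log2 fold changes are those of the fit at the default prior count of edgeR. Each SE given for them is the absolute log2 fold change divided by the square root of the F statistic. The liver interaction was fitted over both liver tables. The GC alternative removed a loess trend (span 0.5) from each library, with GC content known for at least 85.9% of tested genes. Other alternatives were DESeq2 1.42.0, other filters, halved counts (of deposited counts from 1 to 20, 60.0% to 94.3% per library were even), a replicate block and each library left out. Summing near-identical pairs and leaving out the 2 shallowest male liver libraries were chosen after seeing the data. The scripts were tested on simulated data. The members and all gene lists were chosen with earlier results of these data known. Named are the called members of each comparison, a fixed set of 18 members through all comparisons, up to 5 called genes of each outside list and of the rest of the region, and, in F2 testes, members whose groups did not overlap.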

Additional observations from a re-analysis of the deposited data

Results flagged for a closer look

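In groups of 4 to 7 libraries, 1 library lay apart from the others by Dixon's 95% criterion for 24 of 274 groups of a named member, where chance gives about 14. In F1 testes these were C4b at 5.90 CPM in IVF 3 at E18.5 (the others 9.72 to 12.8), Tap1 at 0.853 CPM in IVF 5 at 12 weeks (2.08 to 2.95), and H2-Ab1 at 70.0 CPM and H2-Eb1 at 18.0 CPM in Natural 1 at 12 weeks (4.88 to 8.80 and 2.96 to 4.40).

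Among F2 testes of naturals, B3galt4 stood apart at 7.08 CPM and Tnxb at 2.10 CPM in Natural 1, H2-Ab1 at 9.47 CPM in Natural 3, and H2-K1 at 32.9 CPM in Natural 4. H2-Ea-ps was at 0.0750 CPM in Natural 4 and at 0 in the other naturals. Among IVF testes, Psmb8 stood apart at 0.265 CPM in IVF 2, C4a at 5.91 CPM in IVF 5 and Tap1 at 0.892 CPM in IVF 7.

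In F2 male livers, H2-K1 was apart at 469 CPM and C4b at 2097 CPM in Natural 1, and Tap2 at 39.7 CPM in Natural 4. In IVF 3, which held 543745 counts, Psmb9, Tap2, H2-Eb1 and Tnxb each had 0 CPM, and C4a was at 1016 CPM in IVF 4. In female livers H2-Eb1 was apart at 8.33 CPM in Natural 5 and Cfb at 1594 CPM in IVF 2. In ovaries H2-Ea-ps was apart at 0.384 CPM in IVF 3 and H2-T23 at 100.2 CPM in IVF 5 (the others 40.7 to 50.4).

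The difference between IVF and naturals was not the same in female and male F2 livers for 22 members by the interaction test of edgeR. The same test called 52.9% of all genes. With the GC trend removed, 9 members were called, 6 higher and 3 lower in females, against 34.8% of all genes. The values below are log2 female minus male, with counts as deposited. The differences were 2.45 for Tap2, 2.11 for Tapbp, 1.72 for Tap1, 1.80 for Psmb8 and 1.66 for Psmb9 among peptide processing genes. Class I genes differed by 3.68 (H2-Q1), 2.11 (H2-Q7), 2.10 (H2-M3), 1.90 (H2-Q10), 1.87 (H2-T23), 1.69 (H2-Q6), 1.19 (H2-D1) and 0.88 (H2-K1). Class II genes differed by 3.29 (H2-DMb2), 2.08 (H2-DMa) and 1.16 (H2-Eb1). Complement genes differed by 2.28 (C4b), 1.56 (C2) and 1.21 (Cfb), and other genes by 2.66 (B3galt4), 2.53 (Tnxb) and 0.83 (H2-Ke6).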

How the results depend on the processing

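The count of members called kept within 1.5 times its value in F1 testes at 12 and 39 weeks and in ovaries (0 throughout). At E18.5 the DESeq2 Wald test called 2, and leaving out 1 library gave 0 to 1. In F2 testes the count of 13 was 5 with the replicate block, 8 with near-identical pairs summed and 8 to 14 with 1 library left out. In male livers the count of 10 was 3 with at least 10 counts in every library, where fewer genes were tested, 4 with the GC trend removed and 8 to 14 with 1 library left out. In female livers the count of 18 was 6 with the GC trend removed and 16 to 22 with 1 library left out. The difference between the sexes was called for 22 members, for 9 with at least 10 counts in every library, for 9 with the GC trend removed and for 19 to 23 with 1 library left out. With the GC trend removed its sign turned for H2-K1 (-0.45), H2-Ke6 (-1.43) and H2-D1 (-0.42). Apart from GC, where the trend itself was what was removed, the cause of these moves was not tested. Over all genes, calls moved by more than 1.5 times from 34 to 100 at E18.5, 40 to 70 at 12 weeks, 2 to 95 at 39 weeks, 196 to 336 in F2 testes and 0 to 90 in ovaries with DESeq2. With the replicate block they fell to 2 at E18.5 and 8 at 12 weeks, and with near-identical pairs summed to 92 in F2 testes and 1 at 39 weeks. Without a fold limit they were 181 at E18.5, 150 at 12 weeks and 345 in F2 testes, and without a filter 7 at 39 weeks and 2 in ovaries. With at least 10 counts in every library they were 2 in ovaries, 1490 in male livers and 2675 for the sexes. Removal of the GC trend moved them from 34 to 1 at E18.5, from 2 to 1 at 39 weeks, from 0 to 2 in ovaries, from 3725 (1669 higher, 2056 lower) to 2017 (1360 and 657) in male livers, from 4935 (2701 and 2234) to 2317 (1045 and 1272) in female livers and from 6913 to 4555 for the sexes.

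Libraries of different groups with the same replicate number correlated between -0.226 and 0.301 in their deviations from the group means, and 3 of 64 libraries correlated best with their own number, so the numbers were not taken as pairs. The replicate block called 0 members in F1 testes and ovaries, 11 in male livers and 19 in female livers. The shallowest library was male liver IVF 3 with 543745 counts, where a member at a few CPM can be at 0. Counting error alone bounds what a count of 0 can show, and litters and sires, not given here, may be shared between libraries.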
